A study of Mus musculus with 2 samples.

Results

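The cells described here were chosen as monocytes of the mouse pituitary gland by Plac8 together with Lyz2, and some went against that name in their other genes. They were 98 of 18993 barcodes (droplet labels, each standing for a cell or for RNA from broken cells): 54 of 9210 in the young and 44 of 9783 in the old library. Glands came from male C57BL/6 mice of 2 months (young) and 20 months (old). The 10 glands of each age were pooled before droplet-based 3' RNA sequencing, so each age is 1 library, and no test between ages could be made. Glands were dissociated with enzymes and red cells were lysed, and the labels describe no sort. Intervals below are 95% intervals that cover counting error only, since cells of 1 library are not replicates.

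Monocytes are white blood cells that arise in the bone marrow. Classical monocytes carry Ly6C (encoded partly by Ly6c2) and the chemokine receptor CCR2, and enter tissues, where they can become macrophages or antigen-presenting cells. Nonclassical monocytes have little Ly6C, depend on the nuclear receptor NR4A1 and patrol the walls of blood vessels. The pituitary is a densely vascular gland with its own resident macrophages, so cells from its blood can be captured with the tissue.

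Members held at least 2000 unique molecular identifiers (UMIs, 1 for each captured RNA molecule), 500 genes and at most 15% mitochondrial UMIs. They also held at least 4 UMIs of Plac8, Ly6c2 and Ccr2 together and 3 of Lyz2, at most 5 of the complement C1q genes of macrophages, under 1% of UMIs from the neutrophil genes S100a8 and S100a9, at most 1 UMI of Cd3 genes and at most 2 of Cd79 genes. These measured values chose the cells and are given only as a description. Plac8, a small cysteine-rich protein of myeloid cells, ran from 0 to 65 UMIs a cell with a median of 13 in the young, and from 1 to 87 with a median of 17.5 in the old members. Lyz2, the lysozyme of myeloid cells, ran from 3 to 299 (median 90.5) and from 3 to 383 (median 89). Ly6c2 was above 0 in 30 of 54 young and 22 of 44 old members, and Ccr2 in 39 and 32. With each cell thinned to 2000 UMIs, 87.0% of young and 77.3% of old members had a Plac8 UMI, against 0.269% and 0% of macrophages (median depths 5305 and 6011 UMIs). Ccr2 was found in 46.3% and 38.6% of members against 1.88% and 3.58% of macrophages, and Ly6c2 in 42.6% and 36.4% against 0% and 0.299%. At the limits of the rule, 1 young and 2 old barcodes had 3 UMIs of the Plac8, Ly6c2 and Ccr2 sum and 2 and 2 had 4. For Lyz2, 2 young and 0 old barcodes had 2 UMIs and 1 and 2 had 3. No barcode in either library had between 6 and 12 C1q UMIs with the rest of the rule met, and C1q was 0 in 48 young and 25 old members.

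Members held a median of 6955 UMIs (3154 to 34405) in the young and 9037.5 (4601 to 87337) in the old library. All kept barcodes had medians of 6585 UMIs in the young and 3240 UMIs in the old library, the other way from the members. Macrophages (5305 and 6011) and neutrophils (3274.5 and 4480.5) went the way of the members. At least 20% of UMIs came from the growth hormone gene Gh in 3922 young and 7049 old kept barcodes, with medians of 12957 and 2914 UMIs. Gh in the members put the share of free RNA, from broken cells, at about 9.98% of UMIs in young members and 7.48% in old ones. The libraries shared 31 kept barcodes and no member barcode. Levels below are in CPM, the usual scaled counts, with 7 hormone and 13 mitochondrial genes taken out of the total, summed over the members.

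Myeloid genes were well captured in the members. All 18 genes of a myeloid identity list were measured, among them Spi1, the transcription factor PU.1, at 396 CPM in the young and 336 CPM in the old members. The 19 resident macrophage genes summed to 2318 CPM in young and 4273 CPM in old members, against 50458 and 37777 CPM in macrophages. Most markers of other blood and tissue cells were low. The sum of 8 endothelial genes was 6.64 CPM in the young and 28.0 CPM in the old members, with 6 and 4 of the 8 at 0, and the sum of 13 T or NK cell genes was 24.3 and 178 CPM. Of the latter, 65 UMIs came from 1 old member with at least 15% hormone UMIs. Of these, 37 were of Gzma, a granule protease of cytotoxic lymphocytes. Dendritic cell markers reached 5 or more UMIs in 7 young and 9 old members. The sum of 14 neutrophil genes was 90.7 CPM in young and 162 CPM in old members, against 45581 CPM and 12837 CPM in neutrophils. The rule itself limited S100a8, S100a9, Cd3 and Cd79 genes, so low neutrophil and lymphocyte sums were in part set by it. The myeloid list does not part monocytes from macrophages. It summed to 13703 CPM in young and 13164 CPM in old members, and to 15353 and 14536 CPM in macrophages. Members whose genes went against the name monocyte are described by their genes below.

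The members, all called monocytes here and in the comparison with macrophages, were few at both ages. Their numbers of 54 and 44 include the hormone-rich and Lyz2-poor members described below, without which 45 and 36 were left. They made up 0.586% (exact Clopper-Pearson interval 0.441 to 0.764%) of kept young and 0.450% (0.327 to 0.603%) of kept old barcodes, a ratio of 0.767 old over young (exact conditional interval 0.503 to 1.16). This ratio moved with the minimum of UMIs, to 0.406 at 1000 and 1.67 at 4000, although the members were nearly the same cells (54 and 44 at 1000, 52 and 44 at 4000). Hormone genes took a median of 17.3% of UMIs in kept young and 34.3% in kept old barcodes. How many kept barcodes held free RNA without a cell was not tested, so these are shares of barcodes and not of cells. Against macrophages, taken as barcodes with at least 30 C1q UMIs, there were 7.26 monocytes per 100 in the young (54 to 744) and 13.1 per 100 in the old library (44 to 335). That ratio was 1.81 (1.19 to 2.75). Macrophages were 8.08% of kept young and 3.42% of kept old barcodes. With 1 library an age, more monocytes and fewer macrophages in the gland cannot be told apart.

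Of 6410 genes with at least 50 UMIs in each library, 109 (1.7% of those tested) were at least 4-fold higher in monocytes in both libraries, and 184 (2.87%) at least 4-fold lower. F10, coagulation factor X, was at 188 CPM in young monocytes and 148 CPM in old ones, with 0 UMIs in the macrophages of both libraries. It was at least 258-fold and at least 106-fold higher, against a floor of 3 UMIs over the macrophages. Fn1, the matrix protein fibronectin, was at 263 and 254 CPM in monocytes and at 0.486 and 0.465 CPM in macrophages. Chil3, a chitinase-like protein of classical monocytes, was at 378 and 332 CPM against 0 and 3 UMIs in all macrophages. These sums came from part of the monocytes. F10 was found in 27 of 54 young and 25 of 44 old ones, Fn1 in 20 and 20, and Chil3 in 21 and 13. In both libraries the summed levels in macrophages did not approach those in monocytes.

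Ace, the angiotensin-converting enzyme, was at 177 and 180 CPM in young and old monocytes and at 2.19 and 0.930 CPM in macrophages. Clec4e, the lectin receptor Mincle, was at 179 and 396 CPM against 2.19 and 3.72 CPM. S100a4, a calcium-binding protein of motile cells, was at 1615 and 985 CPM against 3.65 and 14.4 CPM, 443-fold (267 to 796) and 68.3-fold (47.5 to 102) higher. Ifitm6, Hp, Pglyrp1, Gda, Mcemp1 and Anxa1 were the other genes among the 12 with the largest difference. Several of the 12 were higher still in the neutrophils of the same libraries, with Hp at 312 and 535 CPM in monocytes and 769 and 958 CPM in neutrophils, Pglyrp1 at 135 and 164 against 1056 and 747 CPM, and Clec4e at 325 and 608 CPM in neutrophils. Fn1 had 0 UMIs in neutrophils, S100a4 was at 0 and 3.25 CPM, Ace at 18.8 and 6.50 CPM and F10 at 6.25 and 0 CPM there. Hp encodes haptoglobin, which binds free haemoglobin, and Anxa1 encodes annexin A1, which damps inflammation.

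On the other side were genes of resident macrophages and microglia. Tmem119, a microglial membrane protein, and Olfml3, a secreted protein of microglia, had 0 UMIs in the monocytes of both libraries, and 168 and 332 CPM in young and 235 and 336 CPM in old macrophages. Tmem119 was therefore at least 25.3-fold and at least 39.3-fold lower in monocytes. Ms4a7, a membrane protein of tissue macrophages, was at 4.42 and 5.99 CPM in monocytes and at 1423 and 931 CPM in macrophages. Mertk, the receptor for engulfing dead cells, had 1 UMI in young and 0 in old monocytes, against 110 and 178 CPM in macrophages. The complement receptor gene C3ar1 was 58.5-fold (16.2 to 484) and 119-fold (21.2 to 4698) lower, on 2 and 1 UMIs in the monocytes. Fcrls, Ptgs1, P2ry13, Mmp12, Slco2b1 and Gpr34 were also among the 12 with the largest difference.

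At 2-fold in both libraries, against 4.68% of 9535 genes higher and 7.13% lower, 12 of 13 measured classical monocyte genes and 13 of 15 nonclassical genes were higher in monocytes. So were 13 of 14 genes of the S100, annexin and cytoskeleton list and 7 of 14 recruitment receptors and adhesion molecules, among them Itgal and Cd44. The other way went 1 of the 15 nonclassical genes and 2 of the 14 recruitment and adhesion genes, at least 2-fold lower in both libraries. The integrin gene Itgal, which serves arrest on vessel walls, was at 234 and 262 CPM against 10.4 and 8.84 CPM in macrophages, and the hyaluronan receptor gene Cd44 was at 540 and 589 CPM against 21.1 and 47.4 CPM. Lower were 17 of 17 resident macrophage genes, 11 of 20 lysosomal genes and 6 of 11 heat shock genes. Ctsd, the lysosomal protease cathepsin D, was at 188 and 236 CPM in monocytes and at 3616 and 2873 CPM in macrophages. The members had a median of 1.29% and 1.38% of UMIs from the nuclear RNA Malat1, and macrophages 2.41% and 3.39%, and the part of that difference in these results was not tested. MHC class I and II lists had 1 gene each past 2-fold in both libraries, and of 17 pattern recognition and Fc receptor genes 2 were higher and 2 lower.

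**Figure D1:**
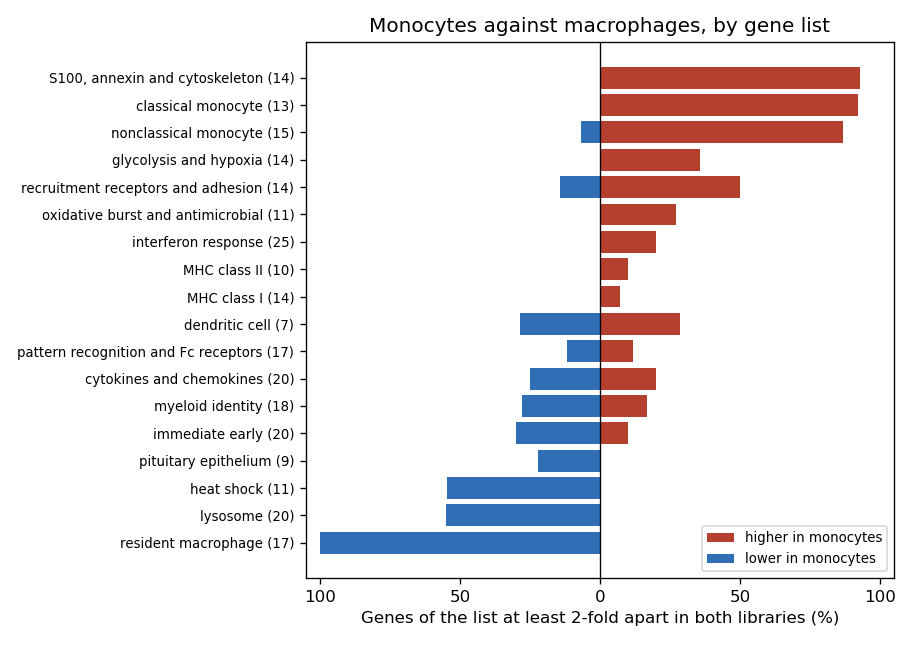
For each gene list with at least 5 genes measured in both libraries, the share of its genes (in %, number measured in brackets) that were at least 2-fold higher (right, red) or at least 2-fold lower (left, blue) in monocytes than in macrophages in both libraries. All 17 resident macrophage genes lie on the lower side, and the classical monocyte, nonclassical monocyte and S100 lists lie almost wholly on the higher side.

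Within the members, Ly6c2 followed a range from classical to nonclassical cells only in part. To compare cells of unequal depth, each was thinned to 2000 UMIs. At that depth 12 young and 8 old members had at least 2 Ly6c2 UMIs, 31 and 28 had none, and the rest, with 1, entered neither side. The classical list stood above the nonclassical list in 8 of the 12 young and 7 of the 8 old Ly6c2-positive members. The nonclassical list stood above the classical list in 23 of the 31 and 22 of the 28 Ly6c2-negative ones. Of 951 genes with at least 50 UMIs in each library, 42 (4.42%) were at least 2-fold higher in Ly6c2-positive members in both libraries, and 41 (4.31%) at least 2-fold lower. The latter were 8 when the split was made without thinning. Fn1 was 5.19-fold (3.16 to 8.61) higher in the young and 11.1-fold (6.65 to 18.9) in the old library. Cd14, the co-receptor for bacterial lipopolysaccharide, was 6.09-fold (4.01 to 9.34) and 4.14-fold (3.04 to 5.62) higher, and F13a1, the clotting transglutaminase, 3.82-fold (2.13 to 6.84) and 4.25-fold (2.79 to 6.44). Ms4a4c, Chil3, Wfdc17, Mgst1, Ms4a6b, Ccl9, Ifi204, Ifi27l2a and Ier3 were the other 9 of the 12 with the largest difference. Of the classical list, 11 of 12 measured genes were at least 2-fold higher in both libraries, against 3.13% of 2523 genes. Of the nonclassical list, 7 of 14 were at least 2-fold lower, against 6.3%.

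The lower side of this split was mixed with endocrine RNA. The genes that led it included Meg3, an imprinted noncoding RNA, Peg3, Ly6h, Kcnq1ot1, Epcam, Dlk1, Ckb and Zbtb20. After thinning, all 4 young and all 4 old members with at least 15% hormone UMIs were Ly6c2-negative, and they held 3087 and 2600 CPM of Dlk1, a growth regulator of pituitary endocrine cells. Without them, Dlk1 in Ly6c2-negative members was 0.847-fold and 1.21-fold that in positive ones, and 17 genes in place of 41 were lower in both libraries. Ccnd2, Rrad, Cd81 and Bhlhe40 were on the lower side too. Bhlhe40, a transcription factor of activated immune cells, stayed 5.75-fold and 5.71-fold higher in Ly6c2-negative members without the hormone-rich cells.

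The 2 monocyte lists sorted the members more directly. After thinning, the classical list stood above the nonclassical list in 20 young and 19 old members, here called the classical range, and below it in 20 and 16, the nonclassical range. Members at least 15% hormone, and members with under 10 Lyz2 UMIs and at least 1% MHC class II UMIs, were set apart beforehand as 4 and 4 and 5 and 4 cells, and 5 and 1 were tied. These ranges are cuts through a continuum made after the data were seen, with 3 and 2 classical and 1 and 0 nonclassical members within 2 UMIs of the cut. In the classical range Lyz2 ran from 69 to 283 UMIs (median 205.5) in the young and 78 to 383 (median 207) in the old library. In the nonclassical range it ran from 13 to 299 (median 44) and from 12 to 149 (median 54.5). Ccr2 was above 0 in 18 of 20 young and 18 of 19 old classical, but in 9 of 20 and 8 of 16 nonclassical members. The counterparts, such as Ace in 17 of 20 and 16 of 16 nonclassical members against 4 of 20 and 1 of 19 classical ones, belong to the lists that made the ranges. Lyz2 and Ccr2 are genes of the rule that chose the members, so their values here are a description only.

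**Figure D2:**
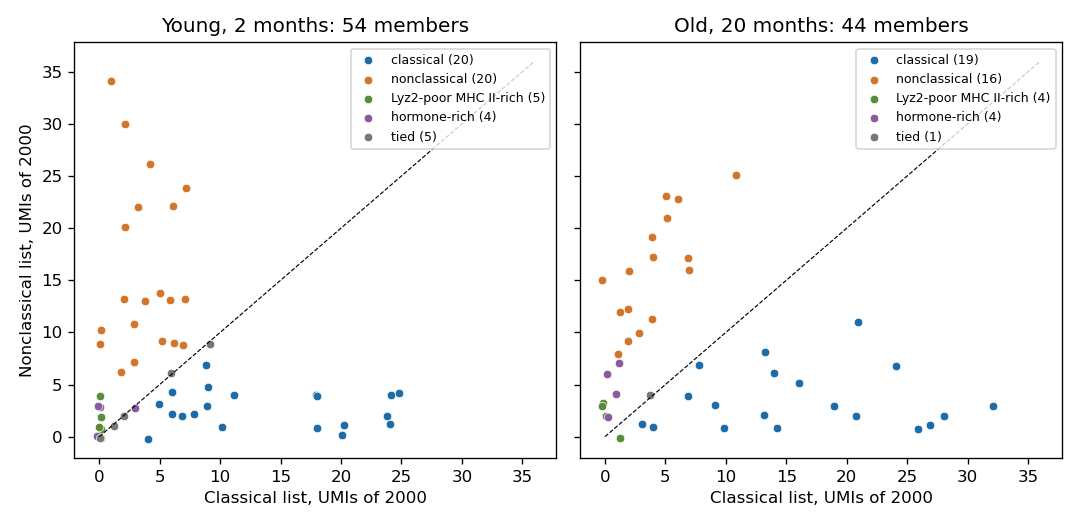
Each point is 1 member, placed by its UMIs of the classical list (horizontal axis) and of the nonclassical list (vertical axis) after thinning to 2000 UMIs, with a small jitter, in the young (left) and old (right) library; colours mark the ranges, with their number of members, and the dashed line marks equal counts. The 20 young and 19 old classical members lie along the horizontal axis and the 20 and 16 nonclassical ones along the vertical axis, with the Lyz2-poor and hormone-rich members near the origin.

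Beyond the genes of those lists, the ranges differed in others. These were picked for leading a range in both libraries and are given as a description. The classical range was led by, among others, Wfdc17, an antimicrobial-type protein, at 1444 CPM in young and 1631 CPM in old classical members and 245 and 298 CPM in all other members. C3, the central complement protein, was at 261 and 236 CPM against 40.4 and 38.3 CPM. Slpi, an inhibitor of neutrophil proteases, was at 338 and 347 CPM against 37.3 and 53.0 CPM. The nonclassical range was led by, among others, Stap1, an adaptor protein, at 493 and 496 CPM against 108 and 90.8 CPM, and Tgm2, a transglutaminase, at 230 and 270 CPM against 38.9 and 29.3 CPM.

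MHC class II was where the classical range of the old library stood apart from that of the young. These genes encode the chains that present peptides to helper T cells, with Cd74, the invariant chain that guides them. The list took at least 1% of UMIs in 1 of 20 young classical members (5.0%, Clopper-Pearson interval 0.127 to 24.9%) and in 8 of 19 old ones (42.1%, 20.3 to 66.5%), and the 2 intervals overlap. Over the young classical members its share of UMIs had a median of 0.0574%, with 19 of 20 between 0.0139% and 0.301% and 1 at 2.97%. Over the old ones the median was 0.158%, the lowest was 0%, and the 8 highest ran from 1.52% to 6.18%. The 2 medians were thus both low, and what differed was the number of cells in the upper group. At limits of 0.5%, 2% and 3%, the counts were 1, 1 and 0 young and 9, 7 and 5 old cells. Without members near the cut between the ranges they were 1 of 17 and 7 of 17. Taken by a Ly6c2 UMI in place of the lists, they were 2 of 30 (6.67%, 0.818 to 22.1%) and 9 of 20 (45.0%, 23.1 to 68.5%). The difference was smaller in 2 wider groups. With the tied members added, 2 young and 1 old of which passed 1%, there were 3 of 25 young (12%, 2.55 to 31.2%) and 9 of 20 old cells (45.0%, 23.1 to 68.5%). Over all members but the hormone-rich and Lyz2-poor ones there were 6 of 45 and 11 of 36. In the nonclassical range, 3 of 20 young and 2 of 16 old members passed 1%, and 8 and 2 passed 0.5%. Whether the ranges differ in their change with age was not tested.

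**Figure D3:**
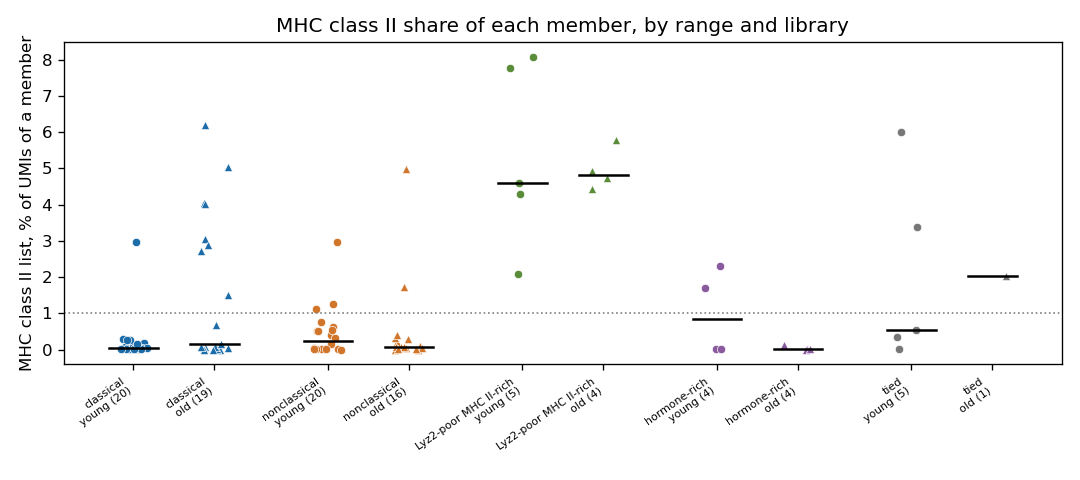
Share of each member's UMIs (in %) from 10 MHC class II genes, for the ranges of members in the young (circles) and old (triangles) library, with the number of members in brackets, the median as a black bar and the limit of 1% as a dotted line; points are jittered sideways. In the classical range 1 young and 8 old members lie above the line, while the medians of both stay below it.

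Summed over the classical range, H2-Aa was at 407 CPM in the young and 3783 CPM in the old library (ratio 9.29, 7.01 to 12.5), H2-Ab1 at 407 and 3504 CPM (8.60, 6.49 to 11.6), and H2-Eb1 at 146 and 2090 CPM (14.3, 9.03 to 24.1). Cd74 was at 1391 and 8999 CPM (6.47, 5.54 to 7.59), and H2-DMb1, a chain of the peptide loading complex, at 69.1 and 428 CPM (6.19, 3.08 to 14.1). The young sums rest on 1 cell, which held 49 of 53 H2-Aa, 47 of 53 H2-Ab1 and 19 of 19 H2-Eb1 UMIs, and the intervals cover counting error only, not the spread between cells. In the other 19 young cells H2-Aa was at 32.5 CPM, H2-Ab1 at 48.8 CPM and H2-Eb1 at 0, and in the 11 class II-poor old cells they were at 12.3, 86.3 and 24.7 CPM. Of 6 genes of the list measured in this range, 5 were at least 2-fold higher in the old library, beside 4.64% of 1982 genes (3.58% lower), and the median log2 ratio of the 6 was 2.89, beside −0.05 over all. Over all 54 and 44 members Cd74 was at 7064 and 7273 CPM (1.03, 0.982 to 1.08), and of 8 genes of the list 0 were at least 2-fold higher and 1 lower. In that sum the Lyz2-poor members described below held 1777 of 3193 young and 1514 of 3641 old Cd74 UMIs. In barcodes of 10 to 100 UMIs, which hold free RNA, the list was at 1842 CPM in the young and 5820 CPM in the old library. Scaled by Gh, free RNA of that kind would give 0.00922% and 0.0264% of a member's UMIs. The list took 0.0924% and 0.352% of all UMIs in those barcodes, and from 1.52% to 6.18% in the 8 class II-rich old cells. The part of free RNA in the class II values was not tested. In Gh-rich barcodes thinned to 2000 UMIs, 4.39% of young and 86.2% of old ones had a Cd74 UMI.

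The promoter regions of 2 of these genes are shown because the class II genes were captured together in the same cells. Each is the window of 300 bases around the annotated start from RefSeq on GRCm38.p6, read along the gene's strand, H2-Aa at chr17:34287774-34288073 on the minus and H2-Eb1 at chr17:34305617-34305916 on the plus strand. Capitals mark every match to GATTGG, or to CCAATC on the other strand, the letters of the core of the Y box of class II promoters. A match in capitals need not be the Y box.
H2-Aa: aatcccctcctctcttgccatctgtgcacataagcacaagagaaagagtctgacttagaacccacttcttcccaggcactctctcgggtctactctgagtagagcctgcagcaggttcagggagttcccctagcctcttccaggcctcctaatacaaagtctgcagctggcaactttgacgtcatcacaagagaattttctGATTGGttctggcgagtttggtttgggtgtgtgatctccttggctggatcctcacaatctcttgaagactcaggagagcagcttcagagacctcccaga
H2-Eb1: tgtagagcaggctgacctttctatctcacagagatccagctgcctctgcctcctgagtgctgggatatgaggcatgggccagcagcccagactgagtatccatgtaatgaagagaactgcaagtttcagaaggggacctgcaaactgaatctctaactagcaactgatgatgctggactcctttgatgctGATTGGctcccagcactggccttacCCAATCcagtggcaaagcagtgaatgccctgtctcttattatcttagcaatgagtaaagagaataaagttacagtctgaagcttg
These letters were found in 7 of the 7 list genes that had a window, of 10 in the list, and in 16.1% of all 32851 windows, on either strand. A match of 6 letters is a description and no evidence of binding.

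The 8 class II-rich classical members of the old library had little Chil3. The genes of the rule, which every member meets, are given as a description. The 8 had a median of 228.5 Lyz2 UMIs (139 to 383) and 28.5 Plac8 UMIs (2 to 87), all 8 had Ccr2 and Ly6c2, and the other 11 old members of the range had medians of 156 and 20. Ccr2 was at 1148 CPM in the 8 and 752 CPM in the 11. Chil3 was at 87.3 CPM (2 of 8 cells) against 1899 CPM (8 of 11 cells), and S100a4 at 1634 against 2824 CPM. Apoe, the lipid carrier that macrophages express strongly, was at 7684 against 2479 CPM, with 5786 CPM in barcodes of 10 to 100 UMIs. Ciita, the master activator of class II genes, was found in 6 of the 8 and 1 of the 11. Of genes of dendritic cells, Itgax had 0 UMIs in the 8, and Cd209a and Clec10a were found in 3 and 2 of them and in 0 of the 11. Flt3, a further dendritic cell gene, was found in 3 old members of the classical range. Neither Flt3 nor other dendritic cell markers were counted separately in the 8. In the young classical range, 3 of the 19 class II-poor members had Cd209a and 6 had Clec10a. Since the 8 were chosen on class II, these values describe them only.

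A separate handful of cells was poor in Lyz2 and rich in MHC class II, 5 young and 4 old. Their Lyz2 lay between 3 and 9 UMIs at depths of 9600 to 34405 UMIs in young cells and 15173 to 18594 UMIs in old ones, and Ly6c2 was 0 in all 9. Class II genes took 2.09 to 8.07% and 4.43 to 5.78% of their UMIs. Flt3, the growth factor receptor of dendritic cells, was found in 4 of 5 and 4 of 4, and the dendritic list reached 6 to 39 and 6 to 21 UMIs, whereas no nonclassical member had Flt3 and 0 young and 3 old classical members did. Irf8, a transcription factor of dendritic cells and monocytes, was at 892 and 1048 CPM against 139 and 169 CPM in the other members, and Wdfy4, needed for cross-presentation, at 413 and 281 CPM against 44.4 and 18.3 CPM. These cells met the rule with 0 to 52 Plac8 and 1 to 5 Ccr2 UMIs, and held at most 1 UMI of the classical list after thinning. They are left unnamed.

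Cell cycle genes were highest in young Lyz2-poor cells. Of these, 1 held 119 UMIs of the cell cycle list, and 3 held at least 20, which no other member of either library reached. Mki67, a mark of dividing cells, had 42 UMIs in the young members, 38 of them in the 2 highest cells, and 1 UMI in the old. Ccl17, the chemokine for CCR4, had 79 UMIs in the young members, of which 76 were in 1 Lyz2-poor cell.

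The hormone-rich members, 4 in each library, had 23468 to 30833 and 18318 to 87337 UMIs, and 24.2 to 38.1% and 16.8 to 43.0% of their UMIs were hormones. Pou1f1, the pituitary transcription factor of somatotrophs, lactotrophs and thyrotrophs, was at 343 and 126 CPM in them and at 28.8 and 17.6 CPM in the other members. Scrublet, ranking barcodes for being 2 cells in a droplet, removed 7 young and 2 old members at the expected rate. Results that follow were also computed without hormone-rich cells and without those that Scrublet removed.

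Between the ages, most genes of the members were close. Of 2789 genes with at least 50 UMIs in both libraries together, 47 (1.69%) were at least 2-fold higher in old members and 27 (0.968%) at least 2-fold lower. Without the members that Scrublet removed, 17 were lower. Among the 12 highest, Il2rg, the common chain of several interleukin receptors, went from 17 UMIs in 13 young members to 56 UMIs in 26 old members (37.6 to 112 CPM, ratio 2.97, 1.70 to 5.46), and was higher in both the classical (46.1 to 112 CPM) and the nonclassical range (25.5 to 163 CPM). Fcgr4, the Fc receptor of nonclassical monocytes, went from 39.8 to 118 CPM (2.96, 1.72 to 5.33), and in the nonclassical range from 128 to 301 CPM. Plk2, a stress-responsive kinase, went from 44.2 to 138 CPM (3.12, 1.87 to 5.41), in 14 young and 21 old members. These 3 were spread over many cells.

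Pclo, Bcl6, Ppm1a, Zfyve9 and Zfp703 were also among the 12 and were found in 10 to 27 old members, with ratios of 2.61 to 5.53. Of the 49 old UMIs of Pclo, a protein of secretory release sites, 36 were in the hormone-rich members. Zfyve9 was higher in the nonclassical range (76.5 to 257 CPM) and lower in the classical one (69.1 to 49.6 CPM). Bcl6, a transcriptional repressor, was higher in the nonclassical range (25.5 to 138 CPM) but not in the classical one (38.4 to 24.8 CPM). The 2 interferon-induced chemokine genes rested on few cells. Cxcl9 went from 17 to 401 UMIs (37.6 to 801 CPM, ratio 21.3, 13.1 to 36.9), but only 3 old members had it, with 277, 110 and 14 UMIs. Cxcl10 went from 53 to 163 UMIs in 7 and 10 members, of which the 2 highest old cells held 86.5%, and Rsad2, an antiviral enzyme, had 61.2% of its old UMIs in 1 cell. For these a ratio speaks of single cells.

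Among the 12 lowest, Icam1, the adhesion molecule bound by leukocyte integrins, went from 155 to 69.9 CPM (ratio 0.451, 0.292 to 0.687), and was lower in the classical (169 to 68.2 CPM) and the nonclassical range (221 to 100 CPM). Aprt, which salvages adenine, went from 223 to 97.9 CPM (0.438, 0.305 to 0.622), in 34 young and 25 old members. Avpi1, a vasopressin-induced gene, went from 106 to 38.0 CPM (0.357, 0.198 to 0.620), and Limd1, a LIM domain protein, from 92.9 to 30.0 CPM (0.322, 0.166 to 0.594). Both were lower in each of the 2 ranges. Slc5a3, the inositol transporter induced by osmotic stress, went from 56 to 12 UMIs (ratio 0.194, 0.0944 to 0.365), and Areg, an epidermal growth factor receptor ligand, from 137 to 38.0 CPM in 6 young and 3 old members. Jdp2, Lpl, Actn1, Tnfsf9, Wdfy4 and Ccl17 completed the 12, with 96.2% of the young Ccl17 UMIs in 1 cell. The 5 young Lyz2-poor cells held 34 of 41 young Actn1, 38 of 54 Wdfy4, 25 of 39 Jdp2 and 17 of 34 Tnfsf9 UMIs. With at least 10 Lyz2 UMIs a member, the log2 ratio of Actn1 turned to 1.39 and that of Ccl17 to 1.74. The old members held 6 Ccl17 UMIs in all, 5 in 1 hormone-rich member and 1 in another, so its turned ratio rests on few UMIs. Tnfsf9 was at 46.1 and 86.8 CPM in the classical range, against its direction over all members, and Actn1 had 0 UMIs in the young classical members.

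**Figure D4:**
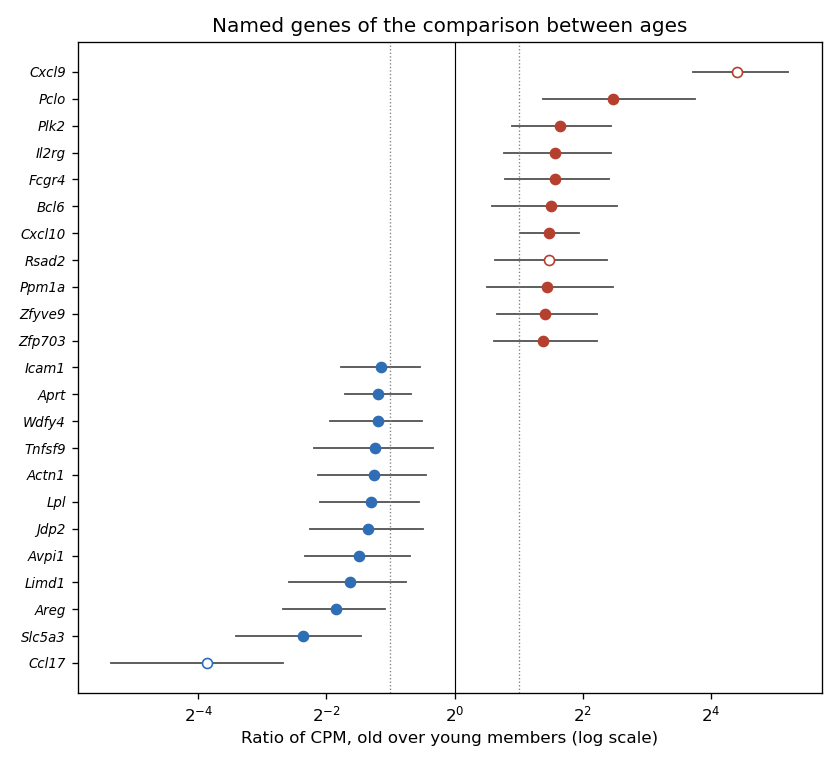
Ratio of CPM in old over young members (horizontal axis, log scale) for the 11 highest and 12 lowest named genes, with exact conditional Poisson intervals as lines; dotted lines mark 2-fold either way, and open circles mark genes with at least 50% of the UMIs of their higher library in 1 cell. Cxcl9, Rsad2 and Ccl17 are open, and Il2rg, Fcgr4, Icam1 and Aprt are filled.

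Lists are described by their counts and medians alone. With at least 20 UMIs, 4.28% of 5728 genes were at least 2-fold higher and 2.57% at least 2-fold lower in old members, and the median log2 ratio over all was 0.04. Of 15 pattern recognition and Fc receptor genes measured, 4 were at least 2-fold higher and none lower (median 0.32). They were Fcgr4, Clec4e, Myd88 and Tlr13. Clec4e went from 179 to 396 CPM (2.21, 1.70 to 2.89), and was higher in the classical (346 to 564 CPM) and the nonclassical range (196 to 615 CPM). Myd88, the adaptor of Toll-like receptors, was found in 11 of 54 young and 22 of 44 old members (26.5 and 69.9 CPM), and Tlr13, a receptor for bacterial ribosomal RNA, in 6 and 18 (15.5 and 49.9 CPM). Old members had more UMIs each, which raises such counts of cells but not the CPM. Cell cycle genes had 4 of 5 at least 2-fold lower and none higher (median −1.41). Of the young UMIs, the 5 Lyz2-poor cells held 40 of 42 of Mki67, 30 of 30 of Top2a and 47 of 99 of Stmn1, a regulator of microtubules. Interferon response genes had 4 of 21 at least 2-fold higher and 1 lower (median −0.15). The higher ones were Cxcl10, Rsad2 and Gbp2, with 46.6, 61.2 and 47.7% of their old UMIs in 1 cell, and Ifit2, found in 1 old member. Cytokines and chemokines had 3 of 17 higher and none lower, with Il1b at 2526 and 2707 CPM (1.07, 0.990 to 1.16). The classical and nonclassical lists had medians of 0.21 and 0.17, with 0 of 14 and 2 of 16 genes higher and none lower. Of 7 resident macrophage genes measured, 1 was at least 2-fold higher and none lower (median 0.52). Within the classical and nonclassical ranges the medians of that list were −0.53 and −0.21, on 5 genes each. Of these, 2 and 1 were at least 2-fold higher and none lower.

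Of the S100, annexin and cytoskeleton list over all members, 11 of the 14 were below an equal level (median log2 ratio −0.39) and none passed 2-fold. In the nonclassical range 7 of 14 were at least 2-fold lower, beside 4.18% of 2177 genes (7.03% higher), and 13 were below an equal level (median −1.10), while in the classical range none of 14 passed 2-fold (median −0.21). In nonclassical members S100a4 went from 1471 to 552 CPM (ratio 0.376, 0.287 to 0.488), S100a6 from 1003 to 396 CPM (0.394, 0.286 to 0.540) and Crip1, a LIM domain protein, from 1718 to 684 CPM (0.398, 0.313 to 0.505). Anxa5 (1.04, 0.668 to 1.63), Tagln2 (0.946, 0.581 to 1.55), Ahnak (0.933, 0.677 to 1.29) and S100a11 (0.865, 0.537 to 1.40) had intervals that span an equal level. The median S100a4 per cell was 4.5 UMIs at both ages, with a highest of 30 in the young and 16 in the old, and old nonclassical members were deeper. The median share of the list per nonclassical member was 0.621% (0.210 to 2.93%) in the young and 0.524% (0.107 to 1.24%) in the old library, and the groups overlapped. Without the 1 young member near the cut, 6 of 13 genes were at least 2-fold lower, with a median of −0.84.

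Of heat shock genes, 10 of 11 were below an equal level (median −0.39), with 2 past 2-fold. Hspa1a was at 1531 and 1169 CPM in the monocytes. In macrophages it was at 5623 and 3015 CPM. MHC class I (median 0.14), lysosome (−0.08) and immediate early genes (0.19) had medians near that of all genes.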

How the data were processed

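The authors deposited unnormalised UMI counts of every observed barcode, in 1 matrix for each age. Reads were processed with Cell Ranger 6.0.2 against GRCm39, per the submitters' processing notes; whether introns were counted is not given in the sources used here. Barcodes were kept and members chosen by the limits stated above, with Python 3.11.15, scipy 1.17.1 and scanpy 1.11.5, and removal by Scrublet was an alternative only. UMIs were summed over members and scaled to the UMIs without hormone and mitochondrial genes. Ratios carry exact conditional Poisson intervals, and shares exact Clopper-Pearson intervals. With 1 library per age there was no test and no p-value. Named genes were the 12 highest and 12 lowest of each comparison with at least 50 UMIs, at least 50 CPM on the higher side and, between ages, at least the level of barcodes of 10 to 100 and 500 to 900 UMIs; ribosomal, mitochondrial, haemoglobin and immunoglobulin genes, and gene models without a name, did not enter. Of the genes so named, 2 are not reported here. Ranking used 0.5 UMI added to each sum. The members, lists and markers were chosen with earlier results of these data known, and the ranges of members after their values were seen. Of the genes listed, 2 were not found in the files. The calculation was tested on simulated data.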

Additional observations from a re-analysis of the deposited data

How the results depend on the processing

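No paired analysis was possible because each age is 1 library. Monocytes per macrophage kept their direction in all 14 alternatives, and both counts against macrophages stayed within 1.5 times in all 17. The share of kept barcodes, old over young, became 0.406 at a minimum of 1000 UMIs and 1.67 at 4000; the members barely changed, and the kept barcodes did. Of genes past 2-fold between ages, 17 were lower without the barcodes that Scrublet removed, and with no minimum of UMIs 1001 were higher and 866 lower. In the classical range alone 23 were higher and 4 lower, and in the nonclassical range 26 were higher. Of genes lower in Ly6c2-positive members, 8 were left when the split was made without thinning and 17 without hormone-rich members. Log2 ratios of old over young turned in 10 cases. By a rule added after seeing the data, no ratio is given where both libraries hold 3 UMIs or fewer; it leaves out 2 further cases that had turned, Actn1 in the classical and Cxcl9 in the nonclassical range. With a Plac8, Ly6c2 and Ccr2 sum of at least 8, Ccl17 came to 3.25 and Actn1 to 0.37. With at least 10 Lyz2 UMIs, Ccl17 came to 1.74, Actn1 to 1.39 and Rsad2 to −0.21. Ccl17 had only 6 UMIs in the old members, all in 2 hormone-rich ones. Rsad2 came to −1.79 without members holding 5 UMIs of another list. In the classical range Bcl6 came to −0.60, Rsad2 to −2.63, Zfyve9 to −0.47 and Tnfsf9 to 0.85. The cause was not tested. The classical and nonclassical ranges, the exclusion of hormone-rich members and the limits and wider groups for MHC class II were chosen after seeing the data. With 54 and 44 cells, a gene under 50 UMIs in all could not be compared with precision, and pooled glands leave the spread between animals unmeasured.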
